A study of Mus musculus with 8 samples.

Results

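The nuclear-encoded subunits of the mitochondrial respiratory chain and ATP synthase were examined in the right cerebral cortex of mice 3 weeks after bilateral carotid artery stenosis (BCAS) or sham surgery. Members were all genes whose symbol follows the naming of these subunits (Nduf with a, b, c, s or v and a number, Sdha to Sdhd, Uqcr, Cox4 to Cox8 and Atp5), without entries marked -ps, and with a mean of at least 10 counts over the 8 libraries. There were 81 members among 54752 genes in the count tables. They comprised 36 genes of complex I, 4 of complex II, 8 of complex III, 16 of complex IV and 17 of complex V. The tissue came from male wild-type mice, labelled C57BL/6 and given as C57BL/6 J in the methods, with 4 mice per group and 1 mouse per library. They were adults, at least 10 weeks old when supplied, and were kept for 1 week before they were assigned to a group. In BCAS mice a microcoil of 0.16 mm was placed on the right common carotid artery and one of 0.18 mm on the left, which narrows both vessels and lowers the blood flow to the forebrain. Sham mice had the arteries exposed without coils. Polyadenylated RNA was sequenced in pairs, and the total counts assigned to genes ranged from 16759364 to 21794435 per library.

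The inner mitochondrial membrane holds a chain of enzymes that passes electrons from NADH (complex I) or succinate (complex II) through ubiquinone to complex III, on to cytochrome c and then, at complex IV, to oxygen. Complexes I, III and IV pump protons as they do so, and complex V, the ATP synthase, lets the protons flow back to make ATP. Most subunits are encoded in the nucleus and imported, while a small core set is encoded by mitochondrial DNA. Neurons draw most of their ATP from this chain, since pumping ions back across the membrane after each signal is costly.

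Of 97 symbols with these names, 8 carried -ps and 8 more had fewer than 10 counts on average. Nearest below the limit were Ndufs6b (mean 8.625 counts), Cox7a1 (6.875) and Cox6c2 (3.875), and nearest above it were Ndufb4c (18.875), Cox4i2 (22.125) and Cox6b2 (33.625). The entry Ndufb1-ps, which other annotations list as the coding gene Ndufb1, was left out by its name and had a log2 fold change of -0.25 (adjusted p = 0.33 by edgeR's quasi-likelihood F-test). All 81 members passed the filter on low counts and were tested.

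Promoters of many such genes are known for recognition sequences for nuclear respiratory factor 1 (NRF-1), for ETS-family proteins such as the GABP alpha subunit (Gabpa, also called NRF-2) and for YY1. RefSeq windows on GRCm38.p6, from 250 bases before to 50 bases after a start site, were matched by symbol for 63 of 81 members (68 windows). Both strands were searched for each set of letters, and matches of different sets could overlap. The NRF-1 letters GCGCNTGCGC stood in 26.5% of the members' windows and in 4.6% of all 32851 windows. The ETS letters CCGGAAG stood in 23.5% against 8.9%, and the YY1 letters AAGATGGCG in 10.3% against 1.4%. The Sp1 letters GGGCGG stood in 38.2% against 35.7% and TATAAA in 8.8% against 13.6%. Over the 21263 windows of coding genes alone the shares were 6.4% for NRF-1, 11.6% for ETS, 1.8% for YY1, 46.2% for Sp1 and 12.6% for TATAAA, so the members' share with Sp1 letters lay above that of all windows and below that of coding genes. Windows of 6 genes that recur in the results are shown 5′ to 3′ on the gene's strand, with the NRF-1, ETS and YY1 letters in capitals, on either strand. They were chosen to show 3 NRF-1 matches in the largest complex II subunit, NRF-1 or ETS matches in genes that were lower in BCAS mice, a start region shared with Gabpa, and no match in the one gene that was higher.
Ndufa5, chr6:24527641-24527940, minus strand: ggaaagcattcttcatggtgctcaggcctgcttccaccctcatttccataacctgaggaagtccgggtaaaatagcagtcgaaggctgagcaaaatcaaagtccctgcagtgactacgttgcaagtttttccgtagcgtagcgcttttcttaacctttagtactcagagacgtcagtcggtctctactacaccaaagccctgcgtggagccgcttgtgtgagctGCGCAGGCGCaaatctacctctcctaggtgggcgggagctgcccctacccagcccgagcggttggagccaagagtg
Sdha, chr13:74350191-74350490, minus strand: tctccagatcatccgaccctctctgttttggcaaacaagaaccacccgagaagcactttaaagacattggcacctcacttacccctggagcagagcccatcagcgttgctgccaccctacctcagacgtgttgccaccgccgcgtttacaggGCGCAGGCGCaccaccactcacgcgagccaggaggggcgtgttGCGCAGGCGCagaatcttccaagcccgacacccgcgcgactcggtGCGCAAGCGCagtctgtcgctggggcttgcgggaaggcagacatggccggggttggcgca
Uqcrc1, chr9:108936398-108936697, plus strand: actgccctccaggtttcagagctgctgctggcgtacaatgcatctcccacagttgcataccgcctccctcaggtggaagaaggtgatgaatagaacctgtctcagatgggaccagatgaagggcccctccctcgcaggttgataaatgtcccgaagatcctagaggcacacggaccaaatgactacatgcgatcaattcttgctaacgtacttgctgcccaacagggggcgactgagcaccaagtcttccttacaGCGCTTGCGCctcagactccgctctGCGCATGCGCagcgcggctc
Cox8a, chr19:7217567-7217866, minus strand: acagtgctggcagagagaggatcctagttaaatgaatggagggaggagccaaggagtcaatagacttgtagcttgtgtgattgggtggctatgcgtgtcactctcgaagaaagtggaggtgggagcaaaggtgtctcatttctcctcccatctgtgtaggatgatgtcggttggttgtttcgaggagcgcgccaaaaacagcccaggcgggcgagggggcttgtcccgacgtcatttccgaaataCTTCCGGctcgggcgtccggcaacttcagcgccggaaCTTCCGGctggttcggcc
Atp5j, chr16:84834927-84835226, minus strand: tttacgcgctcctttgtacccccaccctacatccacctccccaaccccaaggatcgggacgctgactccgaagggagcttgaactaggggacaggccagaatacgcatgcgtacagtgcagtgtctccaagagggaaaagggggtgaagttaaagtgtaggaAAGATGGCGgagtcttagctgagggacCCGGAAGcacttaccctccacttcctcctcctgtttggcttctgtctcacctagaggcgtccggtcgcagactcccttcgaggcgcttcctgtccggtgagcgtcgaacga
Cox6b2, chr7:4753045-4753344, minus strand: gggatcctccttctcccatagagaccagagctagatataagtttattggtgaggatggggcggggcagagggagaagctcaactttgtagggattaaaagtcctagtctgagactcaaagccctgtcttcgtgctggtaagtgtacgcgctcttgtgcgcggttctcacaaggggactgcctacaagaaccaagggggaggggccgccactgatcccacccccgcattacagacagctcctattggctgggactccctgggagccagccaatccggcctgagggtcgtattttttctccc
A match of letters describes the window and shows no binding. Of the 34 members with NRF-1, ETS or YY1 letters, 10 were called lower in BCAS mice and their median log2 fold change was -0.25. Of the 29 members without these letters, 10 were called lower as well, with a median of -0.29. These 10 included Ndufv1, Ndufb3, Cox7a2, Atp5d, Atp5g1 and Cox5a, whose windows are not printed.

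Respiratory chain subunits that passed the test were nearly all lower in the cortex of BCAS mice, 24 of the 27 by less than 0.5 on the log2 scale. The exceptions were Ndufa5, Ndufb4c and Cox6b2. At an adjusted p under 0.05 (edgeR's quasi-likelihood F-test, Benjamini-Hochberg method over 17136 tested genes, as for every adjusted p here), 26 of 81 members were lower (32.1%), 1 was higher (Cox6b2) and 54 were not called. Across all tested genes 12.8% were lower and 19.2% were higher at the same threshold. The estimates of 72 members lay below 0. Over all 81 members the median log2 fold change was -0.26, a difference of -16.5%, with quartiles of -0.32 and -0.19, whereas the median over all tested genes was -0.01. The TMM-normalized CPM of the 4 BCAS mice lay wholly below those of the 4 sham mice for 39 members (48.1%) and wholly above for 0 members, and the shares over all tested genes were 16.3% below and 18.5% above. Few members changed by more than 1 on the log2 scale together with an adjusted p under 0.05. Ndufb4c was the 1 member lower and Cox6b2 the 1 member higher by that rule, beside 1.28% and 11.0% of all tested genes.

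**Figure D1:**
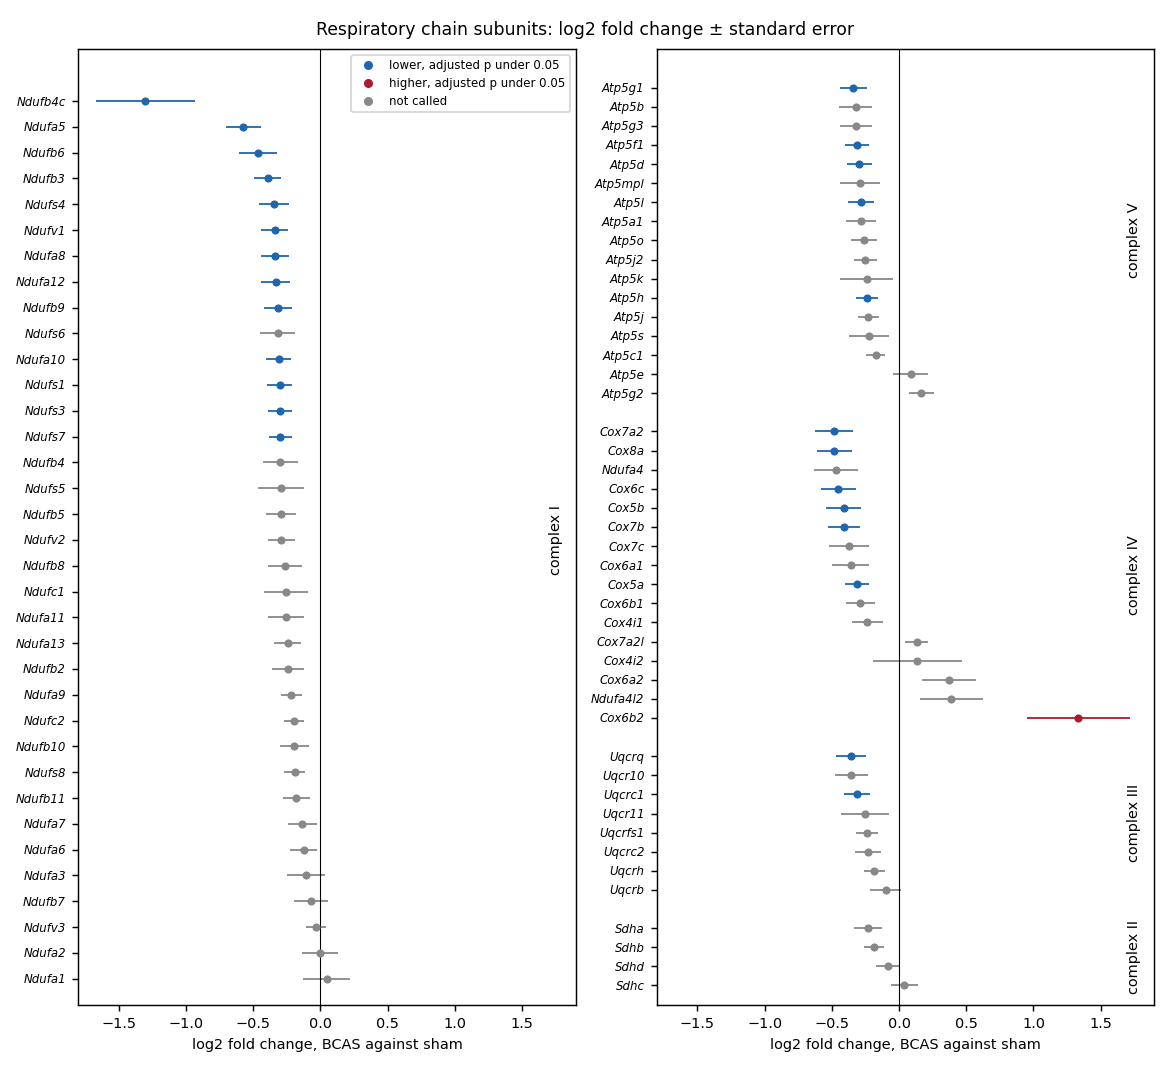
Log2 fold change of BCAS against sham mice (x axis) with its standard error (bars) for the subunits reported by name, complex I on the left and complexes V to II on the right. Blue points are the 26 members lower and the red point, Cox6b2, the 1 member higher at an adjusted p under 0.05. Grey points are members not called, and most of all points lie left of 0.

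How many members were called depended on which mice were in the fit. Without Sham 1, Sham 2, Sham 4, BCAS 3 or BCAS 4 the numbers called lower were 1, 1, 2, 2 and 6, and without Sham 3, BCAS 1 or BCAS 2 they were 25, 19 and 45. The share of all genes called lower moved too. Without Sham 1, Sham 2, Sham 4, BCAS 3 or BCAS 4 it was 2.37%, 2.95%, 3.09%, 4.19% and 4.03%. Without Sham 3, BCAS 1 or BCAS 2 it was 8.21%, 11.2% and 20.9%. The share of the 81 members called lower was thus below that of all genes without Sham 1, Sham 2, Sham 4 or BCAS 3. In the other fits it was above that of all genes. All 26 members called lower had estimates below 0 in each of these 8 fits, and 25 of them lost their call in at least 1. Ndufa5 alone was called lower in all 8.

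A single mouse of each group was lowest in most members, whereas the order of the other mice varied. As the mean log2 CPM over all 81 members relative to the sham mean, the 4 sham mice stood at 0.08, 0.07, -0.14 and -0.01 (SD 0.10), and the BCAS mice at -0.42, -0.14, -0.20 and -0.15 (SD 0.13). BCAS 1 was thus lowest, and Sham 3 stood level with BCAS 2 and BCAS 4. BCAS 1 had the lowest value of all 8 mice in 64 members, and Sham 3 had the lowest sham value in 66. BCAS 2 had the highest value among BCAS mice in 42 members, BCAS 4 in 24, BCAS 3 in 10 and BCAS 1 in 5. The summed TPM of the members, which scales each gene by its exon length, was 19340 ± 856 in sham and 15830 ± 2056 in BCAS mice (SD, n = 4 each).

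Markers of neurons, of microglia and macrophages and of astrocytes had larger median differences than the subunits in the same mice. The pan-neuronal markers stood at 0.07, 0.02, -0.09 and 0.00 in sham and at -1.51, -0.31, -0.65 and -0.74 in BCAS mice on the same scale, again lowest in BCAS 1 and highest of the BCAS group in BCAS 2. Of 12 such markers 7 were lower, with a median log2 fold change of -0.71, and their summed CPM ranged from 10090 to 11550 in sham and from 3806 to 8593 in BCAS mice. Medians of the excitatory and inhibitory neuron markers were -0.92 (2 of 4 lower) and -0.66 (3 of 6 lower). Microglia and macrophage markers were higher in 12 of 12 genes, with a median of 3.32 and summed CPM of 406 to 493 in sham and 2061 to 8246 in BCAS mice. Astrocyte markers were higher in 6 of 7 (median 0.61), whereas 0 of 6 oligodendrocyte markers were called (median 0.20). Endothelial and pericyte or smooth muscle markers were each higher in 2 of 6 tested (medians 0.31 and 0.44). Summed CPM of blood-borne leukocyte markers was 0.783 to 1.71 in sham and 3.19 to 57.0 in BCAS mice, with Ly6g at 0 in all 8. Sham 3 held choroid plexus markers at 749 CPM, against 12.2 as the lowest sham sum and 25.9 to 60.0 in BCAS mice, and 0 of 3 were called. The striatal markers summed to 135 to 231 CPM in sham and 169 to 378 CPM in BCAS mice. Their estimates were above 0 in 4 of 4 genes, with 1 called higher and a median of 0.73. The part of cell composition in the values of the subunits was not tested, and in bulk tissue fewer cells of a type and less RNA per cell cannot be told apart.

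**Figure D2:**
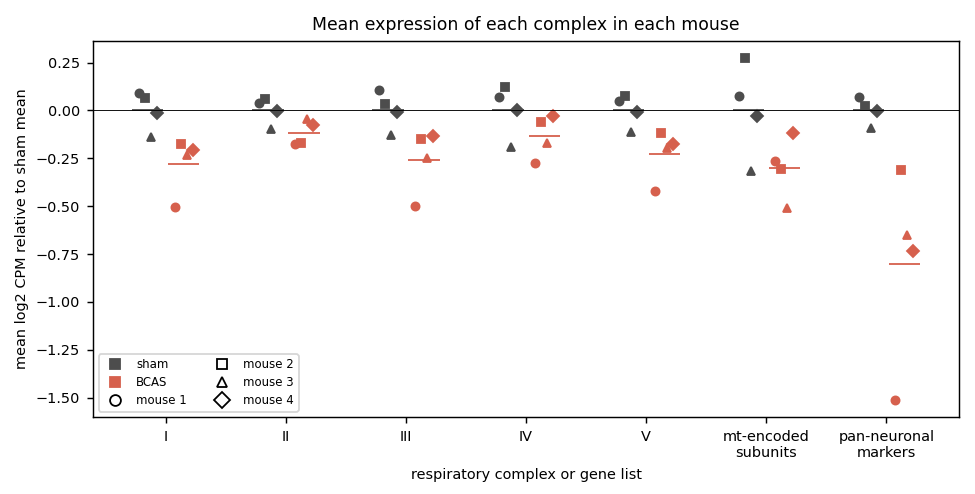
Mean log2 CPM relative to the sham mean (y axis) for each complex, the mitochondrially encoded (mt-encoded) subunits and the pan-neuronal markers (x axis). Each symbol is 1 mouse and each short line a group mean. BCAS 1 lies lowest for complexes I to V and, at -1.51, for the neuronal markers, and complex II has the narrowest gap between the groups.

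Complex I, the entry point for electrons from NADH, is the largest of the complexes. Of its 36 genes 13 were lower (36.1%, against 37.5% of complex IV) and 0 higher, with a median log2 fold change of -0.28. Its mean log2 CPM relative to sham was -0.50, -0.18, -0.23 and -0.21 in BCAS mice, against 0.09, 0.06, -0.14 and -0.01 in sham mice. Among the 7 nuclear-encoded core subunits, which carry the flavin and the iron-sulfur clusters, 4 were lower (median -0.30). Among the 29 accessory genes 9 were lower (median -0.25).

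Ndufa5, an accessory subunit of the matrix arm near the ubiquinone end, differed most among the coding genes of this complex. The gene lies on chr6:24518666-24528013 (mm10, minus strand). Its CPM was 36.4, 38.2, 30.5 and 33.8 in sham and 17.9, 25.5, 24.8 and 25.3 in BCAS mice. The groups were apart and BCAS 1 was far below the other 3 BCAS mice. The log2 fold change was -0.57 (SE 0.13, adjusted p = 0.0149, edgeR). Its 2 promoter windows overlap and both hold the same 1 set of NRF-1 letters, shown in the window printed above.

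Ndufb6, a membrane arm accessory subunit, had CPM of 23.7, 30.4, 22.7 and 25.8 in sham and 14.7, 21.1, 18.0 and 20.6 in BCAS mice. Its groups were apart by a small margin, and the log2 fold change was -0.46 (SE 0.14, adjusted p = 0.0375, edgeR). On the opposite strand Smim27 covers 39.0% of its exon bases, and the counting did not use strand. Ndufb3, also of the membrane arm, had a log2 fold change of -0.39 (adjusted p = 0.0186, edgeR) with no overlap between groups.

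The NADH-binding flavoprotein Ndufv1 had CPM of 145, 141, 122 and 132 in sham and 90.6, 110.4, 108 and 117 in BCAS mice, all BCAS values below all sham values. Its log2 fold change was -0.34 (SE 0.10, adjusted p = 0.0313, edgeR). For Ndufs1, the largest core subunit and holder of several iron-sulfur clusters, the sham values were 149.6, 148, 140.3 and 141 and the BCAS values 99.2, 131, 119 and 119.9. These groups were apart as well, with a log2 fold change of -0.30 (SE 0.09, adjusted p = 0.0372, edgeR). The core subunits Ndufs3 (-0.30) and Ndufs7 (-0.30), which sit at the ubiquinone end, were called lower too. So were the accessory subunits Ndufs4 (-0.35), Ndufa8 (-0.34), Ndufa12 (-0.33), Ndufb9 (-0.32) and Ndufa10 (-0.31). The core subunits Ndufv2 (-0.29, adjusted p = 0.0514, edgeR) and Ndufs8 (-0.19, adjusted p = 0.0806, edgeR) did not pass. Closest to 0 or above it were Ndufv3, Ndufa2 and Ndufa1, with log2 fold changes of -0.03, -0.0046 and 0.05, and Ndufa1 was the 1 gene of complex I with an estimate above 0.

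Ndufb4c, the member with the largest negative fold change, is annotated as a processed pseudogene on chr15:73809507-73809896 (mm10, minus strand) and is near-identical to Ndufb4. It was expressed at 1.99, 1.49, 1.43 and 1.14 CPM in sham and 0.483, 0.617, 1.02 and 0.326 CPM in BCAS mice, which did not overlap. Its log2 fold change was -1.30 (SE 0.37, adjusted p = 0.0279, edgeR). Ndufb4 itself, at 35.7, 37.7, 30.8 and 34.3 CPM in sham and 21.3, 30.3, 30.8 and 30.3 CPM in BCAS mice, had -0.30 (adjusted p = 0.11, edgeR) and overlapping groups. Reads of so close a pair may be split between them, so both values are less sure than those of single-copy genes.

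Complex II, succinate dehydrogenase, which is also an enzyme of the citric acid cycle and the one complex with no mitochondrially encoded subunit, had 0 of 4 genes called and a median log2 fold change of -0.14. At an unadjusted p under 0.05 edgeR found 1 of the 4 lower, and DESeq2's Wald test called 2 lower at an adjusted p under 0.05. Sdha, the flavoprotein that oxidizes succinate, had CPM of 427, 445, 407 and 431 in sham and 307, 402, 369.7 and 377 in BCAS mice. All 4 BCAS values lay below the sham values, yet the log2 fold change of -0.23 (SE 0.10) did not pass (adjusted p = 0.111, edgeR). The 3 NRF-1 matches of its promoter are those printed above. Sdhb, the iron-sulfur subunit, stood at 99.1, 106, 93.2 and 103 CPM in sham and 86.2, 89.5, 92.6 and 84.3 CPM in BCAS mice, again apart, with -0.19 (SE 0.07, adjusted p = 0.0725, edgeR). Of the 2 membrane anchors, Sdhd had -0.08 (SE 0.09) and Sdhc 0.04 (SE 0.10), and both had overlapping groups. Neither a difference between anchors and catalytic subunits nor one between complex II and the other complexes was tested.

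In complex III, which hands electrons from ubiquinol to cytochrome c, 2 of 8 genes were lower (25.0%) and 0 higher. Among all tested genes 12.8% were lower and 19.2% higher. In this complex 8 of 8 estimates were below 0 and the median log2 fold change was -0.24. Uqcrc1, one of the pair of large core proteins on the matrix side, had CPM of 250.0, 257, 219.7 and 245 in sham and 168, 204, 199 and 210.4 in BCAS mice. The groups were apart, and its log2 fold change was -0.32 (SE 0.10, adjusted p = 0.0374, edgeR). Uqcrq, a small accessory subunit, stood at 53.1, 51.1, 40.8 and 47.9 CPM in sham and 31.9, 40.0, 37.4 and 41.1 CPM in BCAS mice. BCAS 4 lay just above Sham 3, and the log2 fold change was -0.36 (SE 0.11, adjusted p = 0.0399, edgeR). For Uqcrfs1, the Rieske iron-sulfur protein, the values were 122, 127, 118 and 123 in sham and 91.1, 113, 107 and 105 in BCAS mice. They did not overlap, but the log2 fold change of -0.24 (SE 0.08) missed the threshold (adjusted p = 0.0556, edgeR).

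Complex IV, cytochrome c oxidase, where oxygen is reduced, held estimates of both signs. Over its 16 genes 6 were lower and 1 higher, with a median log2 fold change of -0.34. The 11 widely expressed subunits all had estimates below 0, with 6 called lower and a median of -0.41. The 4 isoforms known for restricted tissues (Cox4i2, Cox6a2, Cox6b2, Ndufa4l2) all had estimates above 0, with 1 called higher, and the supercomplex factor Cox7a2l stood at 0.13. These signs were the same when libraries were scaled by library size alone, by the upper quartile or as in DESeq2, and the difference between the 2 kinds of subunit was not tested. Cox4i2 turned to -0.01 without Sham 4 and also without BCAS 2. Per mouse, the widely expressed subunits stood at -0.72, -0.23, -0.34 and -0.29 in BCAS mice relative to sham, and the restricted isoforms at 0.82, 0.38, 0.25 and 0.66. By summed TPM, to which the abundant subunits contribute most, complex IV was 6645 ± 538 in sham and 5196 ± 760 in BCAS mice (SD, n = 4 each).

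Cox7a2, a widely expressed small subunit, had CPM of 83.0, 78.4, 71.1 and 79.4 in sham and 40.1, 64.3, 58.1 and 60.6 in BCAS mice. Each BCAS mouse lay below each sham mouse, and the log2 fold change was -0.48 (SE 0.14, adjusted p = 0.0305, edgeR). Cox8a, the member with the highest level per length in sham cortex (1954 TPM), stood at 287, 262, 214 and 247 CPM in sham and 147, 204, 183 and 189.9 CPM in BCAS mice. Those groups were apart too, with a log2 fold change of -0.48 (SE 0.13, adjusted p = 0.0236, edgeR), and its promoter shown above holds 2 sets of ETS letters. Cox6c (-0.45), Cox5b (-0.41) and Cox7b (-0.41) were also called lower.

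Cox5a, a matrix-side subunit, had CPM of 82.9, 78.3, 68.0 and 79.4 in sham and 55.6, 62.7, 64.9 and 65.4 in BCAS mice, with no overlap and a log2 fold change of -0.31 (SE 0.09, adjusted p = 0.0285, edgeR). Neighbouring genes share 12.8% of its exon bases. Cox4i1, the common form of the regulatory subunit that binds ATP, stood at 363, 372, 291 and 322 CPM in sham and 251, 311, 276 and 306 CPM in BCAS mice. Sham 3 fell among the BCAS mice, and the log2 fold change of -0.24 (SE 0.11) was not called (adjusted p = 0.135, edgeR). Ndufa4, first described in complex I and now placed in complex IV, had CPM of 126, 121, 102 and 118 in sham and 58.0, 104, 89.8 and 85.4 in BCAS mice. BCAS 2 reached above Sham 3, and the log2 fold change of -0.47 (SE 0.16) just missed the threshold (adjusted p = 0.0527, edgeR).

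Of the restricted isoforms and their common partners that follow, Cox6b2 alone was called. It is known as the testis form of subunit 6b and had the lowest level per length of all members in sham cortex (3.81 TPM). Its CPM was 0.567, 1.56, 0.913 and 0.964 in sham and 3.38, 1.49, 1.89 and 3.32 in BCAS mice. BCAS 1 and BCAS 4 were high, whereas BCAS 2 lay below Sham 2. The log2 fold change was 1.33 (SE 0.39, adjusted p = 0.0303, edgeR), and the adjusted p rose to between 0.0612 and 0.0813 without Sham 1, Sham 3, Sham 4, BCAS 1 or BCAS 4, each left out in turn. The common form, Cox6b1, stood at 62.9, 62.7, 54.4 and 61.8 CPM in sham and 40.5, 55.0, 51.5 and 51.2 CPM in BCAS mice, with -0.29 (SE 0.11, adjusted p = 0.0631, edgeR) and BCAS 2 just above Sham 3.

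Cox6a2, the heart and muscle form of subunit 6a, had CPM of 4.20, 3.99, 3.14 and 5.18 in sham and 6.14, 4.27, 5.50 and 5.38 in BCAS mice. The groups overlapped, and the log2 fold change was 0.37 (SE 0.20, adjusted p = 0.179, edgeR). Itgad, an integrin gene on the opposite strand, shares 10.3% of the exon bases of Cox6a2. For the common form Cox6a1 the values were 231, 239.7, 167 and 212 in sham and 138, 185, 159.9 and 179 in BCAS mice, with -0.36 (SE 0.14, adjusted p = 0.0718, edgeR) and Sham 3 among the BCAS mice.

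Isoform pairs with a hypoxia-induced partner were not called. Ndufa4l2, a relative of Ndufa4 known as a target of hypoxia-inducible factor, stood at 3.40, 3.18, 1.77 and 3.01 CPM in sham and 3.90, 3.44, 3.23 and 4.30 CPM in BCAS mice, with 0.39 (SE 0.24, adjusted p = 0.223, edgeR). BCAS 3 lay below Sham 1, and the other BCAS mice lay above every sham mouse. Cox4i2, the lung form of subunit 4, which low oxygen can also raise, stood at 1.25, 1.12, 1.37 and 0.783 CPM in sham and 1.58, 1.65, 0.701 and 1.03 CPM in BCAS mice. Its groups overlapped, and the log2 fold change was 0.14 with an SE of 0.33 (adjusted p = 0.771, edgeR). Cox7a1 and Cox8b, the muscle forms of subunits 7a and 8, were below the count limit at 3 to 10 and at 0 to 2 counts per library. Cox7a2l, which joins complexes III and IV into supercomplexes, had CPM of 132, 128, 112 and 119.8 in sham and 148, 128, 129 and 135 in BCAS mice, with overlapping groups and an adjusted p of 0.257 (edgeR).

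**Figure D3:**
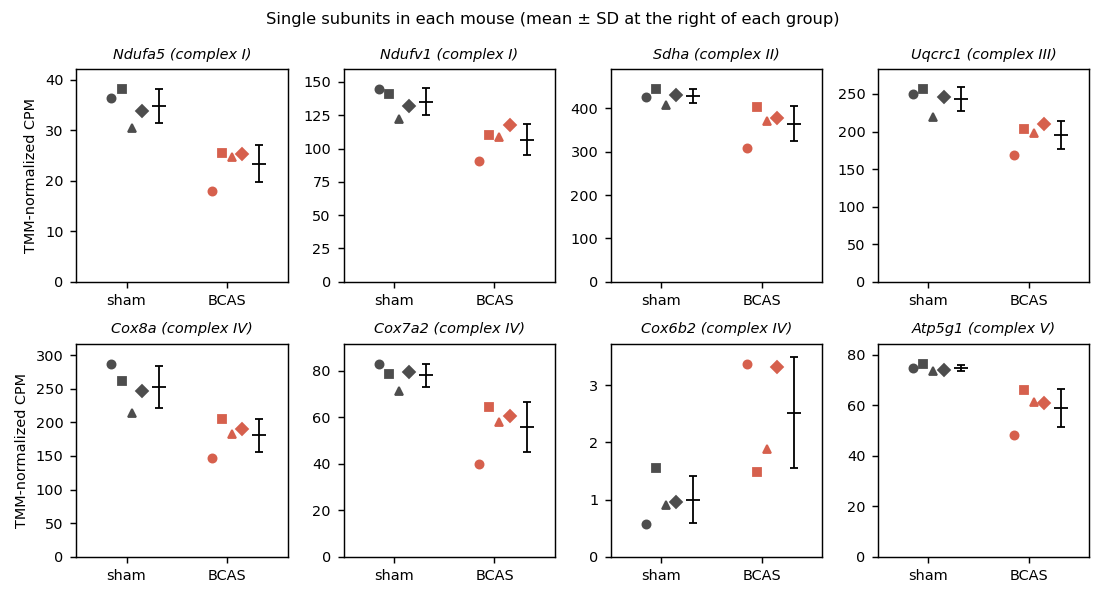
TMM-normalized CPM (y axis, from 0) of 8 subunits in the 4 sham mice (grey) and 4 BCAS mice (red), with circle, square, triangle and diamond for mice 1 to 4 and the mean ± SD beside each group. The groups are apart in all panels except Cox6b2, where BCAS 2 lies within the sham range, and BCAS 1 is lowest in the 7 other panels.

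In complex V, the ATP synthase, 5 of 17 genes were lower and 0 higher, with a median log2 fold change of -0.26. Its mean relative to sham was -0.42, -0.12, -0.20 and -0.18 in the BCAS mice. The catalytic head is built from Atp5a1 and Atp5b, the most abundant members after Cox8a and Cox6a1 in TPM. Atp5b had CPM of 1130.2, 1165, 1022 and 1101 in sham and 734, 989, 899 and 909 in BCAS mice, which did not overlap. Its log2 fold change of -0.32 (SE 0.12) did not pass (adjusted p = 0.0718, edgeR). Atp5a1 stood at 862, 894, 868 and 852 CPM in sham and 608, 787, 710.4 and 757 CPM in BCAS mice, also apart, with -0.28 (SE 0.11, adjusted p = 0.081, edgeR). Of the central stalk, Atp5d was lower, from 169.7, 176, 155 and 160.0 CPM in sham to 116, 143, 135 and 144 CPM in BCAS mice, by a log2 fold change of -0.30 (SE 0.09, adjusted p = 0.0377, edgeR), whereas Atp5e had an estimate of 0.09 (SE 0.13). Groups were apart for Atp5d and overlapped for Atp5e.

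Atp5g1, Atp5g2 and Atp5g3 encode the same mature protein of the rotating c-ring. Atp5g1 stood at 74.9, 76.5, 73.5 and 74.0 CPM in sham and at 48.3, 66.1, 61.1 and 60.9 CPM in BCAS mice. The groups were apart and the log2 fold change was -0.34 (SE 0.10, adjusted p = 0.0304, edgeR). A near-identical pseudogene held counts equal to 22.02% of those of Atp5g1. Atp5g3, at 163, 179.7, 163 and 167 CPM in sham and 104, 149, 143 and 143 CPM in BCAS mice, was apart as well but not called (-0.32, adjusted p = 0.062, edgeR). Atp5g2, at 41.0, 45.7, 43.2 and 49.7 CPM in sham and 56.4, 45.3, 48.8 and 51.1 CPM in BCAS mice, overlapped between groups and had an estimate of 0.17 (SE 0.10, adjusted p = 0.196, edgeR). Per length, the sham levels of the 3 genes were 64.3, 113 and 326 TPM.

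Atp5f1, subunit b of the peripheral stalk that holds the head still, had CPM of 211, 217, 191 and 206 in sham and 145, 179, 176 and 164 in BCAS mice. The groups did not overlap and the log2 fold change was -0.31 (SE 0.09, adjusted p = 0.0316, edgeR). A pair of further subunits, Atp5h of the stalk (-0.24) and Atp5l of the membrane part (-0.29), were called lower, and near-identical genes elsewhere held counts equal to 9.93% and 16.7% of theirs. Atp5j, the stalk subunit also called coupling factor 6, stood at 93.2, 88.7, 78.9 and 83.9 CPM in sham and 67.6, 75.4, 76.6 and 74.5 CPM in BCAS mice, apart but not called (-0.23, adjusted p = 0.0535, edgeR). Of its 2 promoter windows the one printed above overlaps head to head with that of Gabpa and holds ETS and YY1 letters, and the other holds none of the NRF-1, ETS or YY1 letters. Gabpa lies on the opposite strand, and the 2 genes share 12.7% of the exon bases of Atp5j. The inhibitor of the ATP synthase, Atpif1, lies outside the naming rule. It had a log2 fold change of -0.40 (SE 0.11, adjusted p = 0.0269, edgeR) from 48.6, 51.6, 43.5 and 48.5 CPM in sham to 29.7, 41.5, 38.6 and 35.4 CPM in BCAS mice, while Gm12999 on the opposite strand covers 33.7% of its exon bases. The call of Atpif1 was lost without Sham 1, Sham 2, Sham 4, BCAS 3 or BCAS 4 (adjusted p up to 0.0759, edgeR). Further subunits outside the rule were Usmg5 of complex V (-0.43, adjusted p = 0.0875) and Ndufab1 of complex I (-0.14, adjusted p = 0.207, both edgeR), neither called.

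Small subunits often have processed copies in the genome. With a match of at least 150 bases at 95% identity or more, 22 of the 80 members searched had near-identical genes elsewhere, 39 genes in all, 36 of them pseudogenes. Together with Ndufb4c, these 23 members had 11 lower and a median of -0.30, and the 58 others had 15 lower, 1 higher and a median of -0.25. Exon bases were shared with another gene in 28 members, in 11 of them by more than 10%. Those 11 had 3 lower and a median of -0.24, against 23 lower, 1 higher and a median of -0.27 in the 70 others.

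Sham levels per length varied widely within a complex. Median TPM was 142 for complex I, 215 for complex II, 235 for complex III, 262 for complex IV and 116 for complex V, and single members ranged from 3.81 (Cox6b2) to 1954 (Cox8a). Across the 81 members, which share the same libraries, the log2 fold change had a Pearson's r of -0.39 and a Spearman's rho of -0.26 with the log2 sham TPM. Sham values enter both of these measures, which by itself pulls r below 0, so nothing is read from its sign. With log2 exon length r and rho were -0.01 and -0.01. The restricted isoforms of complex IV sat at the low end of the levels with estimates above 0, and Ndufb4c at the low end with the lowest estimate of all.

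**Figure D4:**
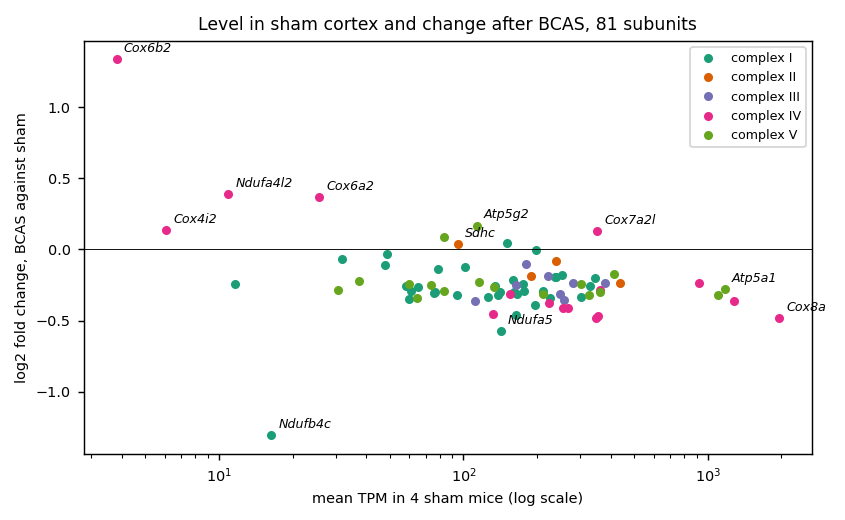
Mean TPM in the 4 sham mice (x axis, log scale) against the log2 fold change of BCAS against sham mice (y axis) for the 81 subunits, coloured by complex, with 11 genes named. Sham values enter both axes. Of the 75 points above 30 TPM, 69 lie between -0.5 and 0, whereas 5 of the 6 members below 30 TPM lie outside that band, with Cox6b2 (3.81 TPM) highest and Ndufb4c lowest.

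The subunits encoded by mitochondrial DNA form the catalytic core with which the members are assembled. Of 13 such genes 12 were tested, 12 had estimates below 0 and 2 were lower (16.7%), with a median log2 fold change of -0.30. That share is near the 12.8% lower among all tested genes. The complex I genes mt-Nd1 and mt-Nd2 were those called. mt-Nd1 stood at 87.7, 96.3, 65.3 and 76.6 CPM in sham and 58.5, 61.4, 54.1 and 64.0 CPM in BCAS mice, apart, with -0.45 (SE 0.12, adjusted p = 0.0243, edgeR). mt-Nd2 stood at 102, 107, 80.6 and 90.2 CPM in sham and 73.1, 72.4, 69.6 and 81.3 CPM in BCAS mice, where BCAS 4 lay just above Sham 3, with -0.36 (SE 0.10, adjusted p = 0.03, edgeR). The order of mice differed from that of the nuclear genes: the mean of the mitochondrial genes relative to sham was -0.26, -0.30, -0.51 and -0.12 in BCAS mice, lowest in BCAS 3, and 0.07, 0.27, -0.32 and -0.03 in sham mice. Both calls were lost without Sham 1, Sham 2, Sham 4 or BCAS 3 (highest adjusted p 0.0699 and 0.0817, edgeR). Libraries were made from polyadenylated RNA, and mitochondrial transcripts carry only short tails, so their CPM is not a measure of their abundance against nuclear genes.

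Factors that build the complexes but do not stay in them were also lower in part. Of 51 assembly factors 48 were tested, 11 were lower (22.9%) and 0 higher, with a median log2 fold change of -0.18, beside 12.8% lower and 19.2% higher among all tested genes. Ndufaf2 (-0.61), Ndufaf1 (-0.38), Ecsit (-0.34) and Tmem126b (-0.30) act on complex I, Sdhaf1 (-0.65) on complex II, Ttc19 (-0.54) and Uqcc2 (-0.47) on complex III, Coa3 (-0.41) and Coa7 (-0.34) on complex IV, and Atpaf1 (-0.47) and Tmem70 (-0.34) on complex V. Coa3 had CPM of 52.2, 49.8, 51.8 and 50.5 in sham and 34.5, 40.9, 38.8 and 39.3 in BCAS mice, well apart (SE 0.08, adjusted p = 0.00684, edgeR). It was called in all 8 fits that left out a mouse (highest adjusted p 0.0286, edgeR), in which 1 to 16 assembly factors were lower. Each of the other 10 lost its call in at least 3 of these fits (adjusted p up to 0.1191, edgeR).

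Among 17 genes for mobile electron carriers and ubiquinone synthesis, 3 were lower (17.6%) and 3 higher (17.6%), with a median of -0.16. These shares are near those of all tested genes (12.8% and 19.2%), and leaving out 1 mouse gave 1 to 4 lower and 1 to 3 higher. Cycs, cytochrome c itself, stood at 98.1, 96.0, 89.3 and 91.4 CPM in sham and 59.0, 81.3, 73.7 and 70.2 CPM in BCAS mice, apart, with -0.40 (SE 0.10, adjusted p = 0.0201, edgeR). Coq9 (-0.36) and Coq4 (-0.33), which serve ubiquinone synthesis, were lower too. Etfa (0.35) and Etfdh (0.48), which bring electrons from fatty acid oxidation to ubiquinone, and the ubiquinone kinase-like gene Coq8b (0.42) were higher. Etfdh and Coq9 were called with each mouse left out in turn (highest adjusted p 0.0349 and 0.0443, edgeR), whereas the call of Cycs was lost without Sham 1, Sham 2, Sham 4 or BCAS 4 (up to 0.0616). Coq4 lost its call in 7 of these 8 fits (up to 0.1188), Coq8b in 4 (up to 0.0716) and Etfa in 3 (up to 0.0612, all edgeR).

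Of 14 regulators of mitochondrial biogenesis, 2 were lower (14.3%) and 3 higher (21.4%), with a median of -0.06. These shares too are near those of all tested genes (12.8% and 19.2%), and leaving out 1 mouse gave 0 to 3 lower and 1 to 3 higher. Ppargc1a, the coactivator PGC-1 alpha, had CPM of 64.3, 67.6, 65.4 and 65.3 in sham and 38.7, 56.2, 46.4 and 50.2 in BCAS mice, apart, with -0.45 (SE 0.11, adjusted p = 0.0173, edgeR). Its nuclear receptor partner Esrrg was lower too, with -0.74 (adjusted p = 0.0213, edgeR). Gabpa, whose product binds the ETS letters, went the other way, at 25.6, 31.0, 28.9 and 30.3 CPM in sham and 55.9, 32.6, 39.5 and 45.4 CPM in BCAS mice, with 0.58 (SE 0.16, adjusted p = 0.0246, edgeR) and BCAS 1 highest. Sp1 (0.72) and the PGC-1-related coactivator Pprc1 (0.43) were higher as well. Nrf1 (0.14, SE 0.15), Tfam (-0.21, SE 0.09), Esrra (-0.37, SE 0.15) and Yy1 (-0.05, SE 0.06) were not called. Leaving out a mouse kept the call of Sp1 in all 8 fits (highest adjusted p 0.0339, edgeR), that of Ppargc1a in 6 (lost without Sham 2 or BCAS 3, up to 0.0518) and that of Gabpa in 3 (lost without BCAS 4 or any 1 sham mouse, up to 0.0739). The call of Esrrg was lost without Sham 1, Sham 2 or Sham 4 (up to 0.0643) and that of Pprc1 in 5 of these fits (up to 0.066, both edgeR).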

How the data were processed

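Deposited RNA-seq tables of the right cortex, 1 per mouse, covered 4 sham and 4 BCAS mice, grouped by the labels. Per the methods, the authors trimmed the reads with Trim-galore, aligned them to mm10 with HISAT2 and sorted them with Samtools 1.9. The authors deposited raw read-pair counts per gene, without normalization, over exons. Per the file headers these came from featureCounts 2.0.1 with GENCODE vM20 and no strand option, whereas the methods name release 1.6.3 and RefSeq. Symbols came from GENCODE vM21 by gene ID, which matched 54723 of 54752 genes.

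The counts were tested in R 4.3.3 with edgeR 4.0.16, after TMM normalization and filterByExpr (minimum count 10, minimum total 15). The 2 groups were compared by its quasi-likelihood F-test, with no covariate, and p-values were adjusted over 17136 genes by the Benjamini-Hochberg method. The study used limma on normalized log2 counts, which was kept as an alternative. CPM are TMM-normalized, and TPM use the deposited exon lengths. Means of log2 CPM used a prior count of 2. Standard errors were derived from each fold change and the square root of F. In the smallest library 3 counts equal 0.179 CPM, which covers counting error only. Near-identical genes were searched with BLAST 2.17.0 and figures drawn with matplotlib 3.10.9 in Python 3.11.15. The procedures were tested on simulated data in which the changed genes moved by more than most members did. That test does not cover changes as small as those of most members.

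Members and lists were chosen with earlier results of these data known, so lists are described by counts and medians without a p. Genes named with full statistics were the 3 called members of each complex with the largest absolute log2 fold change, the catalytic or redox core subunits, paired or restricted isoforms, the inhibitor and Cox7a2l, and called mitochondrially encoded genes. Others were chosen after their values were seen. One member is counted but not reported here by name. Alternatives covered normalization (DESeq2's size factors, upper quartile, library size alone), filters, DESeq2 1.42.0, limma 3.58.1 (voom, and log2(CPM + 1) with trend), counts thinned to the smallest library, the replicate number as a block, a threshold of 0.01, and leaving out each mouse.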

Additional observations from a re-analysis of the deposited data

Results flagged for a closer look

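Dixon's test for a single distant value was run on 70 groups of 4 mice, for the named genes and the means of the complexes. It marked 3, and chance marks about 1 in 20, so 3 of 70 is no more than chance would mark. In the BCAS group, the mean of complex I in BCAS 1, -0.50 on the log2 scale relative to the sham mean, stood apart from the other 3 mice. Ndufa5 in the same mouse, at 17.9 CPM, lay far below the other BCAS mice, and this gene is itself part of that mean. In the sham group, Cox6b1 in Sham 3, at 54.4 CPM, lay below the other sham mice. BCAS 1 also had the lowest neuronal markers and Sham 3 the highest choroid plexus markers, as given above, and their part in these values was not tested.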

How the results depend on the processing

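The members' median log2 fold change stayed between -0.32 and -0.17 over 18 alternatives, and 68 to 75 of the members tested had estimates below 0, but the number of calls moved widely. Against 26 members called lower, library size alone gave 5 (complex I 3, III 0, IV 2, V 0), no filter beyond 1 count in total gave 7 (complex I 3, III 0, V 0), and DESeq2's Wald test gave 45 (complex II 2, III 4, V 12). The shares of all genes lower in these fits were 7.59%, 5.16% and 18.2%, beside 12.8% in the main fit. With library size alone, the share of the 81 members called lower was thus below that of all genes. An adjusted p under 0.01 gave 0 lower and 0 higher. Complex III had 4 lower with the upper quartile and with limma-trend, and complex V 3 with at least 10 counts in every library. No member was lower past both thresholds (0) with no filter, with at least 10 counts in every library or with limma-trend, and 0 were higher with limma-trend, whose pseudocount of 1 shrinks low genes. The filter of 10 counts removes Ndufb4c, the only member lower past both thresholds, so its 0 follows from that filter. Library size alone, which put the median of all genes at 0.08, gave a complex II median of -0.0464. Complex IV was -0.36 by the log2 ratio of summed TPM, against -0.13 by the mean of log2 CPM, and -0.12 as the mean over its members, against a median of -0.34. Leaving out 1 mouse gave 1 to 45 members lower and 0 to 1 higher (complex I 1 to 18, III 0 to 5, IV 0 to 10 lower and 0 to 1 higher, V 0 to 12), and 0 to 1 past both thresholds in each direction. Cox4i2, at 0.14, ranged from -0.0116 (without BCAS 2; -0.0099 without Sham 4) to 0.33 (without BCAS 3).

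The replicate number as a block gave 4 members lower, all in complex I, with 0 in complexes III, IV and V, and 0 higher, also past both thresholds. In that fit 6.58% of all genes were lower, so the share of 4 of 81 members lay below that of all genes. Over all tested genes, mice of the same number did not deviate together from their group means. The pairs' correlations were -0.05, -0.10, -0.01 and 0.00, none over 0.1. With so few pairs this cannot tell whether mice of the same number were handled together. Over the 18 fits Ndufa5 kept its call at 0.05 (adjusted p 0.000868 to 0.0488). The cause of the other moves was not tested. With 4 mice a group, the members called lie close to the threshold, and members under about 2 CPM (Cox4i2, Cox6b2, Ndufb4c) rest on few counts.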

Other observations

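Genes of mitochondrial protein import and of the mitochondrial ribosome lie outside the respiratory chain. Among 15 genes of protein import and the outer membrane, 3 were lower and 0 higher, with a median log2 fold change of -0.21, and leaving out 1 mouse gave 0 to 6 lower. Tomm40, the import pore of the outer membrane (-0.44, adjusted p = 0.0191), and the inner membrane translocase genes Timm17a (-0.34, adjusted p = 0.0254) and Timm23 (-0.28, adjusted p = 0.0389, all edgeR) were those called. Of 40 genes of the mitochondrial ribosome, which translates the 13 mitochondrially encoded subunits, 39 were tested, 5 were lower (12.8%) and 1 higher (2.6%), with a median of -0.12, and leaving out 1 mouse gave 2 to 9 lower and 0 to 2 higher. Mrps27 (-0.48, adjusted p = 0.0143) and Mrpl3 (-0.38, adjusted p = 0.0149) were lowest among those called, and Mrpl24 was higher (0.41, adjusted p = 0.0369, all edgeR). Mrps27 and Mrpl3 were called with each mouse left out in turn (highest adjusted p 0.0462 and 0.0495, edgeR), whereas Tomm40 was lost without Sham 1, Sham 4 or BCAS 4 (up to 0.0586) and Timm17a, Timm23 and Mrpl24 in most of these fits (up to 0.0699, 0.0967 and 0.0852). The shares of all tested genes were 12.8% lower and 19.2% higher, so the ribosome's share lower equalled that of all genes.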
